A study of Mus musculus with 15 samples.

Results

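The 41 genes described here encode proteins of the cardiac sarcomere and its Z-disc: 6 of the thick filament, 2 of the M-band, 8 of the thin filament, 6 that set thin filament length or anchor it, 10 of titin's Z-disc partners including titin itself, 5 Xin-repeat, filamin-type and desmin proteins of the Z-disc periphery, 2 ankyrin-repeat stress proteins and 2 proteins that fold or methylate at the myofibril. They were chosen by symbol, and each of the 41 was found among the probe sets that carry a single gene symbol on the array, beside 19937 genes so found in all. All 41 also had a mean signal above the lower limit for testing, log2 5.002, which 12102 genes passed; Tnni1, with a mean of 5.08, was just inside that limit.

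RNA came from left ventricular heart muscle cells of male C57Bl/6NT mice, 8 to 9 months old, and was hybridised to 1-colour Affymetrix mouse gene arrays. Intact animals had received 90 cGy of 1 GeV protons over the whole body, and cells were isolated 1, 3, 5, 12 or 26 days later, with 2, 3, 3, 2 and 2 arrays. The controls were 3 sham-exposed samples, 2 taken at day 1 and 1 at day 3, which served together as controls for all 5 days. All comparisons with sham therefore share these 3 samples, and no sham sample analysed here was later than day 3. The sample titles supplied the days; the design text gives other late days and also an iron beam, whose samples were not analysed here. Cells had been freed with collagenase and selected for tolerance of calcium, a procedure that the labels credit with more than 90% tolerant heart muscle cells while allowing for some inflammatory or endothelial cells. Nothing in the labels says whether arrays of a group came from separate mice, so p-values measure only the spread between these samples, which may be technical.

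The sarcomere is the contractile unit of the heart muscle cell: myosin thick filaments, cross-linked at the M-band, pull on actin thin filaments anchored at the Z-disc, while titin spans from Z-disc to M-band as an elastic ruler. Calcium binding to the troponin complex moves tropomyosin along the thin filament and lets the myosin heads bind. Hearts under load often shift toward isoforms of the fetal program, such as Myh7 and Acta1, and raise Z-disc stress genes such as Ankrd1, Ankrd2 and Xirp1.

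The deposited values are log2 signals, whose level depends on each probe set, so they were compared between samples and not between genes. Mean signals over the 15 arrays ran from 5.08 for Tnni1 to 12.62 for Actc1, and 16 of the 41 genes had a mean above 11, where the highest signal of any probe set was 12.776 on one array and 12.944 on another, the extremes of the 15. Replicates 1 and 2 of proton day 5 hardly differed: gene by gene, their log2 values differed with an SD of 0.0768, where the other pairs among the 105 gave 0.222 to 0.527. They were counted as 1 sample, at their mean, which left 14 samples. The sham sample of day 3 stood apart from the other controls for these genes: its median deviation from the gene means was 0.114, against 0.02 and 0.03 in the sham samples of day 1, and it held the highest of the 14 values for 15 of the 41 genes. Without it, the difference over all proton days turned direction for 8 of the 41 genes (Myh7, Myl3, Mybpc3, Myom1, Myom2, Lmod2, Nebl and Tcap), and for 26, these 8 included, it turned or moved by more than 1.5-fold. Values without that sample therefore stand beside the differences of the 41 genes described below that it moves that far. For second probe sets, other genes and marker lists such values are not given.

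All 12 cardiomyocyte markers outside the sarcomere, such as Ryr2, Pln and Atp2a2, passed the signal limit. Their mean log2 signal per sample ran from 10.76 to 10.88 in sham. In proton samples it was 10.87 to 10.95 on day 1, 10.88 to 10.98 on day 3 and 10.86 to 10.88 on day 5. On days 12 and 26 it was 10.78 to 10.85 and 10.79 to 10.83. Of 13 skeletal muscle markers 7 passed the limit: Myh2, Tnnt3, Tnni2, Actn3, Atp2a1, Casq1 and Mybpc2. Their means ran from 5.375 for Actn3 to 6.902 for Atp2a1. Myh1, Myh4, Myh8, Mylpf, Tnnc2 and Pvalb lay below the limit. Markers of other heart cells were also measured. The mean of the 12 macrophage markers was 6.21 to 6.73 in sham. In proton samples it was 6.97 to 7.59 on day 1, 5.93 to 7.34 on day 3, 6.76 to 6.78 on day 5, 6.52 to 7.62 on day 12 and 6.96 to 7.17 on day 26. The 12 endothelial markers averaged 7.62 to 8.00 in sham and 7.20 to 8.55 in the proton samples, and the 12 fibroblast markers, of which 11 passed the limit, 6.84 to 7.20 and 6.59 to 8.01. None of these lists had a gene past the adjusted threshold, and their part in the results below was not tested, apart from a fit with a covariate made of these markers, given where it changed a call. Since RNA of a whole suspension was measured, fewer cells of a type and less RNA per cell cannot be told apart.

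No sarcomere or Z-disc gene passed the threshold against sham at any proton day, over all proton days together, or between late and early days, after Benjamini-Hochberg adjustment over the 12102 genes (limma's moderated test, threshold 0.05). The shares of all genes called were 0%, 0.00826%, 0.0496%, 0% and 0.0413% for the 5 days in order, 0.0248% over all days and 0.00826% for late against early. That is 0 to 6 genes a comparison. The smallest adjusted p among the 41 genes was 0.754, 0.301, 0.359, 0.531, 0.227, 0.317 and 0.131 in the same order. At an unadjusted p under 0.05, the genes lower numbered 2, 0, 10, 9 and 8 at the 5 days, 10 over all days and 10 for late against early. The genes higher at that level were 3 at day 3 and 3 at day 26, and none in the other comparisons. Of all genes, 2.96%, 2.57%, 4.78%, 4.62%, 5.67%, 5.86% and 6.38% were lower at that unadjusted level, and 2.55%, 6.29%, 4.21%, 3.39%, 8.6%, 6.19% and 6.86% higher. The sarcomere genes lower at that level were 4.88%, 0%, 24.4%, 22%, 19.5%, 24.4% and 24.4% of the 41.

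Most of the 41 genes had a mean below that of sham, by small amounts. Below sham lay 26, 22, 32, 34 and 29 of the 41 genes at the 5 days and 32 over all proton days. These are 63.4%, 53.7%, 78%, 82.9%, 70.7% and 78% of the 41, where 51.7%, 49%, 48.8%, 48.1%, 41.2% and 46.7% of all genes lay below. The median log2 differences were -0.05, -0.02, -0.11, -0.10, -0.06 and -0.07, against -0.01 to 0.05 for all genes; with array medians set equal the day 1 median was 0.01, and with quantile normalization the day 3 median was 0.0006. With array medians set equal 18 of the 41 genes lay below sham at day 1 and 36 at day 26. That scaling moved the median of all genes to 0.05 and -0.05 at these days. With quantile normalization 27 lay below over all proton days, where the median of all genes was -0.01. Under quantile normalization the median of the 41 genes was above that of all genes at days 1 and 3, by 0.005 and 0.0188. Without the sham sample of day 3 the counts below sham were 23, 22, 30, 30, 27 and 26 and the medians -0.03, -0.01, -0.07, -0.06, -0.02 and -0.04. Groups that did not overlap sham on the low side numbered 9, 3, 13, 16 and 12 of 41 genes at the 5 days (14.9%, 4.39%, 15.8%, 11.2% and 14.1% of all genes), and on the high side none, 2, none, none and 2 (14.2%, 8%, 16.8%, 9.92% and 24.7% of all genes). No gene of the 41 kept all 11 proton samples apart from the 3 sham samples, as 0.909% of all genes did below and 0.826% above.

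**Figure D1:**
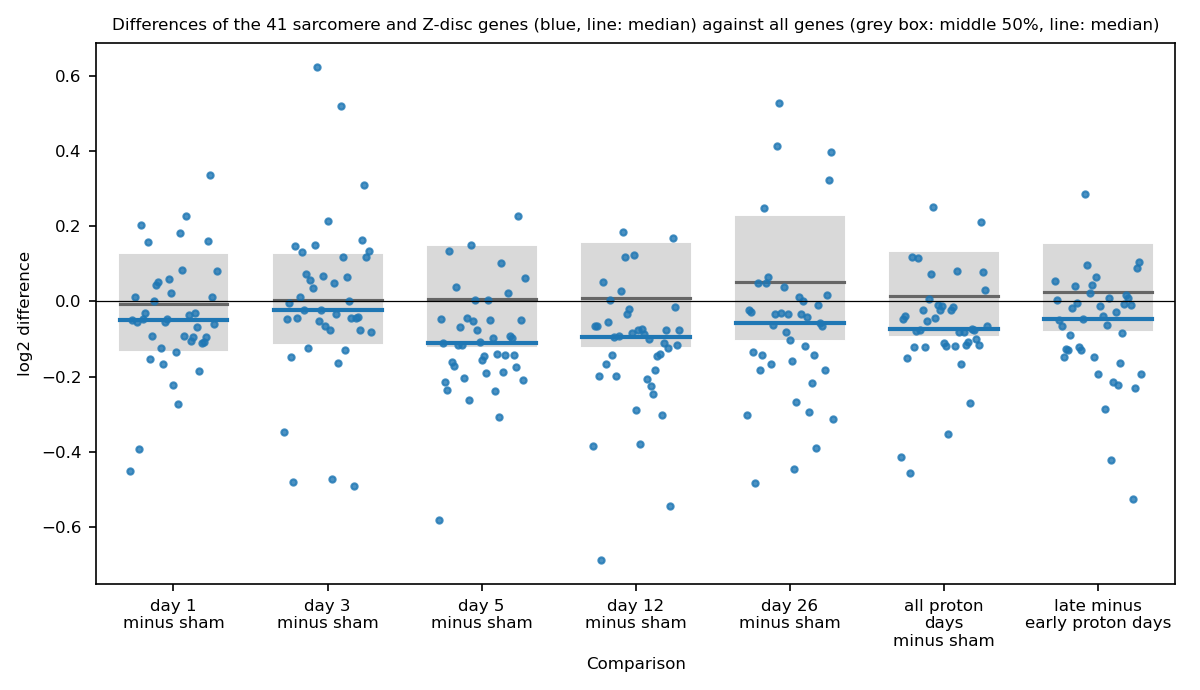
Log2 differences (vertical axis) of the 41 sarcomere and Z-disc genes in each of the 7 comparisons (blue points, with a blue line at their median), beside the middle 50% of the 12102 genes tested (grey box, with a grey line at the median). The blue median lies below the grey one in every comparison, from -0.02 at day 3 to -0.11 at day 5, and most points lie within 0.4 of zero. Under quantile normalization the order of the medians turned at days 1 and 3.

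The arrays bounded these differences most closely for bright probe sets. For 7 genes (Actc1, Myl3, Myl2, Myh6, Tnnt2, Tnni3 and Lmod2) the 95% intervals of all 5 day differences lay within 0.25 of zero on the log2 scale, for 26 genes within 0.5 and for 36 of 41 within 1, where 1.11%, 31.9% and 88.3% of all genes did. Actc1 had the closest bound, 0.14 or 1.1-fold over the 5 days, and Ankrd2 the widest, 1.32. These bounds belong to the deposited scaling and were not computed under the others. Setting array medians equal shifted the median of all genes by -0.1051 at day 26. The median residual SD of the 41 genes was 0.115, against 0.165 for all genes. It was 0.0651 for the 16 with a mean above 11 and 0.0627 for all 144 genes of that level, these 16 included. The cause of the close bounds was not tested, and neither was compression of signal near the upper end of the scale.

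**Figure D2:**
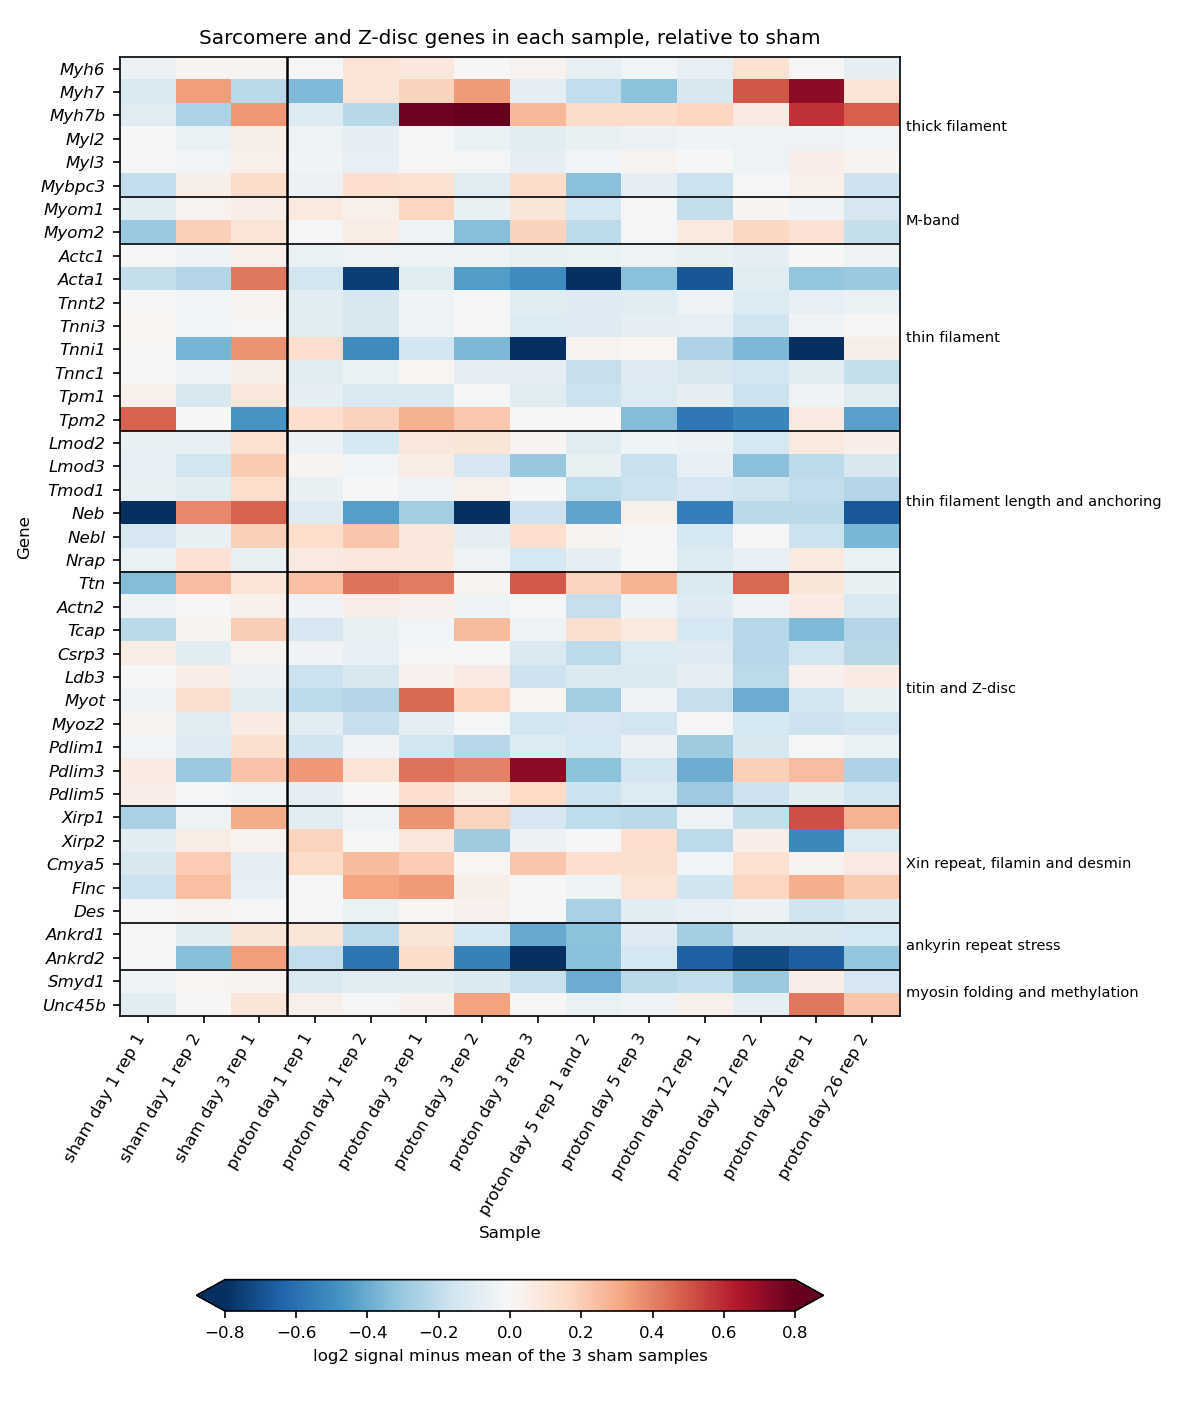
Log2 signal of each of the 41 genes (rows, ordered by role) in each of 14 samples (columns; proton day 5 replicates 1 and 2 averaged), minus the mean of the 3 sham samples, from blue (lower) to red (higher) on a scale cut at 0.8 on each side. Acta1, Ankrd2 and Neb are blue in nearly all proton samples but also vary among the sham samples, while the rows of Actc1, Myl2 and Myl3 are almost uncoloured.

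Windows at the annotated starts of 35 of the 41 genes were read to see what their promoters share, from 250 bases before to 50 after each start (RefSeq, GRCm38.p6; 46 windows of 300 bases). The CArG box, the binding motif of serum response factor, occurred in 7 of the 46 windows (15.2%), those of Acta1, Actc1, Ldb3, Myl3, Myom1 and Nebl, and in 1.63% of all 32817 such windows. Windows of the same gene can overlap, so a site can count more than once, as the CArG box of Ldb3 does. The MEF2 box was found in 4 windows (8.7%, against 3.19% of all), at Mybpc3, Myoz2, Ttn and Xirp2. The MCAT element CATTCC, the TEAD family's motif, was in 30.4% of these windows and 14.7% of all, and the GATA motif AGATAA in 17.4% and 11.2%, with both strands read and overlaps between motifs allowed; TATAAA, read on the gene's strand alone, was in 8.7% and 8.32%. The promoters of 4 genes are shown because they hold the motifs by which actin, myosin light chain and Xin-repeat genes are usually described; capitals mark the CArG box in the first 3 and the MEF2 box in the last, each line is read 5′ to 3′ on the gene's strand and ends at the base before the start, and a match is a description of the letters only.
Acta1, chr8:123894776-123894895, minus strand: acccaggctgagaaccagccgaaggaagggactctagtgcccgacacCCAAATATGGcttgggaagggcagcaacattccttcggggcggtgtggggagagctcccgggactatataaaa
Actc1, chr2:114052876-114052995, minus strand: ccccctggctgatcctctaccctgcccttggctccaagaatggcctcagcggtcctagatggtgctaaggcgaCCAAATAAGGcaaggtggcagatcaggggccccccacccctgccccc
Myl3, chr9:110763558-110763677, plus strand: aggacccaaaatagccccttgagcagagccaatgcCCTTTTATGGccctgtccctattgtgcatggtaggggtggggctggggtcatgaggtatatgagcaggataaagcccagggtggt
Xirp2, chr2:67445882-67446001, plus strand: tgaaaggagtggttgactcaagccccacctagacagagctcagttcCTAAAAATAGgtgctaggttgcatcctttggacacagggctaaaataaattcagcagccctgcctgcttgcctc
The 6 genes with a CArG box had a median difference from sham of -0.03 over all proton days, the 4 with a MEF2 box -0.06, and the 25 with a window and neither box -0.08; without the sham sample of day 3 these were -0.01, -0.01 and -0.05.

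Among the thick filament genes, neither the adult nor the fetal myosin heavy chain passed the test. Myh6, the alpha heavy chain that dominates the adult mouse ventricle, gave 11.86, 11.93 and 11.93 in the sham samples. Proton samples of Myh6 read 11.90 and 12.02 on day 1, 11.99, 11.90 and 11.94 on day 3, 11.84 and 11.88 on day 5, 11.84 and 12.03 on day 12, and 11.92 and 11.83 on day 26. Its samples overlapped sham at every day, and the difference over all proton days was 0.01 (SE 0.044, adjusted p = 0.957), and 0.02 without the sham sample of day 3; the estimate was -0.02 with array medians set equal and also with a covariate for other-cell markers. The interval of that difference, -0.09 to 0.10, reaches at most 0.10 on either side of zero.

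Myh7, the slower beta heavy chain of the fetal ventricle and the loaded adult heart, gave 6.66, 7.12 and 6.57 in the sham samples. Proton samples of Myh7 read 6.43 and 6.88 on day 1, 6.97, 7.12 and 6.71 on day 3, 6.59 and 6.45 on day 5, 6.66 and 7.28 on day 12, and 7.50 and 6.89 on day 26. The replicates of most days were far apart, and each day overlapped sham, including day 26, whose higher sample was the highest of all. Over all proton days the difference was 0.07 (SE 0.173, adjusted p = 0.878), and -0.03 without the sham sample of day 3; late minus early it was 0.29 (SE 0.179, adjusted p = 0.51). Relative to the sham mean, the log2 ratio of Myh7 to Myh6 ran from -0.23 to 0.31 in the sham samples themselves. The -0.23 was the sham sample of day 3, and the ratio was not computed without that sample. In proton samples the ratio ran from -0.34 to -0.01 on day 1, -0.11 to 0.34 on day 3 and -0.30 to -0.13 on day 5. It ran from -0.06 to 0.38 on day 12 and 0.19 to 0.70 on day 26, where the lower value lies inside the sham range.

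Myh7b, a slow-type heavy chain that carries a microRNA in an intron, had the largest difference above sham of the 41 genes. Its signals were 6.11, 5.96 and 6.56 in the sham samples. Proton samples of Myh7b read 6.10 and 5.99 on day 1, 6.99, 7.03 and 6.48 on day 3, 6.36 and 6.36 on day 5, 6.38 and 6.28 on day 12, and 6.79 and 6.69 on day 26. Both day 26 samples lay above all sham samples, whereas at day 3 the lowest sample lay inside the sham range. The difference was 0.62 (SE 0.168, adjusted p = 0.301) at day 3, a fold of 1.54, and 0.53 (SE 0.188, adjusted p = 0.256) at day 26. With a covariate for other cells, the mean deviation of endothelial, fibroblast and macrophage markers, Myh7b passed the threshold at day 3 (adjusted p = 0.0439, log2 difference 0.61) and at day 26 (adjusted p = 0.0428), in a fit in which 99 and 135 of all genes passed. That score was lowest in day 3 replicates 2 and 1, at -0.72 and -0.61, the samples with the highest Myh7b, and 0.48 in day 3 replicate 3.

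The light chains and the myosin binding protein had small differences from sham. Myl2 and Myl3, the regulatory and essential light chains of the ventricle, had day differences from -0.06 to -0.03 and from -0.05 to 0.04, with every day's interval within 0.15 of zero. Without the sham sample of day 3 these ran from -0.03 to -0.01 and from -0.03 to 0.06. Under quantile normalization Myl2 turned above sham in mean at all 5 days, and Myl3 at days 1, 3 and 12. With array medians set equal both turned above sham at day 1, and Myl3 turned below it at days 5 and 26. Myl3 lay below all sham samples at day 1 and overlapped them at the other days. Mybpc3, which brakes cross-bridges as cardiac myosin binding protein C, differed most at day 5, by -0.20, with overlap, and by -0.13 without that sham sample. The M-band cross-linkers myomesin 1 and 2 (Myom1, Myom2) overlapped sham at each day, with differences of -0.08 to 0.07 and -0.11 to 0.12; without that sham sample these were -0.06 to 0.10 and -0.06 to 0.18.

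All 8 thin filament genes had a mean below sham over all proton days, also under both other scalings, 5 of them at an unadjusted p under 0.05 (5.86% of all genes), and none passed after adjustment. Actc1, the cardiac actin of the adult thin filament, gave 12.65, 12.63 and 12.70 in the sham samples. Proton samples of Actc1 read 12.61 and 12.62 on day 1, 12.62, 12.62 and 12.60 on day 3, 12.61 and 12.62 on day 5, 12.60 and 12.59 on day 12, and 12.66 and 12.62 on day 26. At days 1, 3, 5 and 12 its samples lay below all sham samples, as did 1 of day 26, but by small amounts. The difference over all proton days was -0.05 (SE 0.0243, adjusted p = 0.454), 0.969-fold of sham, and -0.03 without the sham sample of day 3. With array medians set equal its day 1 mean turned above sham. Late minus early, Actc1 had a difference of 0.00 (SE 0.0252, adjusted p = 0.954) and an interval of -0.05 to 0.06; that estimate was -0.01 with quantile normalization and -0.09 with array medians set equal.

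Acta1, the skeletal actin that the fetal and the loaded heart express, gave 10.32, 10.27 and 10.92 in the sham samples. Proton samples of Acta1 read 10.36 and 9.75 on day 1, 10.41, 10.06 and 10.002 on day 3, 9.67 and 10.17 on day 5, 9.82 and 10.42 on day 12, and 10.20 and 10.21 on day 26. The sham sample of day 3 was the highest of all, and 8 of 11 proton samples lay below the lowest sham sample. Day differences were -0.45, -0.35, -0.58, -0.39 and -0.30, and over all proton days -0.41 (SE 0.177, adjusted p = 0.391). Without the sham sample of day 3 the day differences were -0.24, -0.14, -0.37, -0.18 and -0.09, and that over all days -0.20. Late minus early it was 0.06 (SE 0.183, adjusted p = 0.92), and -0.04 with array medians set equal. The log2 ratio of Acta1 to Actc1, relative to the sham mean, ran from -0.20 to 0.38 in sham and from -0.78 to -0.01 in the proton samples. The 0.38 was the sham sample of day 3, which raised the mean that this ratio is set against. The ratio was not computed without that sample, where the differences over all days were -0.20 for Acta1 and -0.03 for Actc1.

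Troponin joins calcium to contraction, and its 3 cardiac subunits differed from sham by small amounts. Tnnt2, which ties the complex to tropomyosin, gave 12.36, 12.33 and 12.38 in the sham samples. Proton samples of Tnnt2 read 12.27 and 12.22 on day 1, 12.32, 12.34 and 12.27 on day 3, 12.25 and 12.26 on day 5, 12.31 and 12.24 on day 12, and 12.29 and 12.30 on day 26. It lay below all sham samples at days 1, 5, 12 and 26; its difference was -0.11 (SE 0.0394, adjusted p = 0.754) at day 1, a fold of 0.927, and -0.08 (SE 0.0282, adjusted p = 0.352) over all days. Tnni3, the adult inhibitory subunit, gave 12.32, 12.28 and 12.31 in the sham samples. Proton samples of Tnni3 read 12.21 and 12.17 on day 1, 12.26, 12.31 and 12.19 on day 3, 12.20 and 12.22 on day 5, 12.24 and 12.14 on day 12, and 12.27 and 12.31 on day 26. It lay below sham at days 1, 5 and 12 and overlapped at days 3 and 26, with a difference of -0.11 (SE 0.0449, adjusted p = 0.754) at day 1 and -0.07 (SE 0.0321, adjusted p = 0.399) over all days. Late minus early the difference of Tnni3 was 0.02 (SE 0.0333, adjusted p = 0.849), and -0.08 with array medians set equal.

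Tnnc1, the calcium-binding subunit, gave 11.88, 11.85 and 11.93 in the sham samples. Proton samples of Tnnc1 read 11.80 and 11.84 on day 1, 11.90, 11.81 and 11.82 on day 3, 11.70 and 11.78 on day 5, 11.76 and 11.74 on day 12, and 11.80 and 11.69 on day 26. It lay below sham at days 1, 5, 12 and 26, and in 10 of 11 proton samples in all, and its late samples also lay below its early ones. Differences were -0.14 (SE 0.0508, adjusted p = 0.459) at day 5, -0.14 (SE 0.0508, adjusted p = 0.609) at day 12 and -0.11 (SE 0.0363, adjusted p = 0.317) over all days, a fold of 0.928. Tnni1, the fetal inhibitory subunit, gave 5.30, 4.92 and 5.65 in the sham samples. Proton samples of Tnni1 read 5.43 and 4.79 on day 1, 5.14, 4.93 and 4.33 on day 3, 5.32 and 5.31 on day 5, 5.05 and 4.93 on day 12, and 4.47 and 5.34 on day 26. At these low signals the samples of each day overlapped sham, and the difference over all days was -0.27 (SE 0.224, adjusted p = 0.617), with an interval of -0.76 to 0.22; without the sham sample of day 3 it was -0.09. For late minus early, Tnni1 gave -0.01 (SE 0.232, adjusted p = 0.99) and 0.15 with the other-cell covariate. Signal shared between near-identical paralogs, such as the actins and the myosin heavy chains, was not tested. The tropomyosins wrap the actin filament. Tpm1, the cardiac form, differed by -0.14 at day 5 and -0.10 over all days, with overlap throughout, while the low-signal Tpm2 lay below sham at day 12 (-0.55) and above it in mean at days 1 and 3. Without the sham sample of day 3, Tpm1 differed by -0.05 over all days, and Tpm2 lay below sham in mean at days 1 and 3 as well (-0.08 and -0.07).

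**Figure D3:**
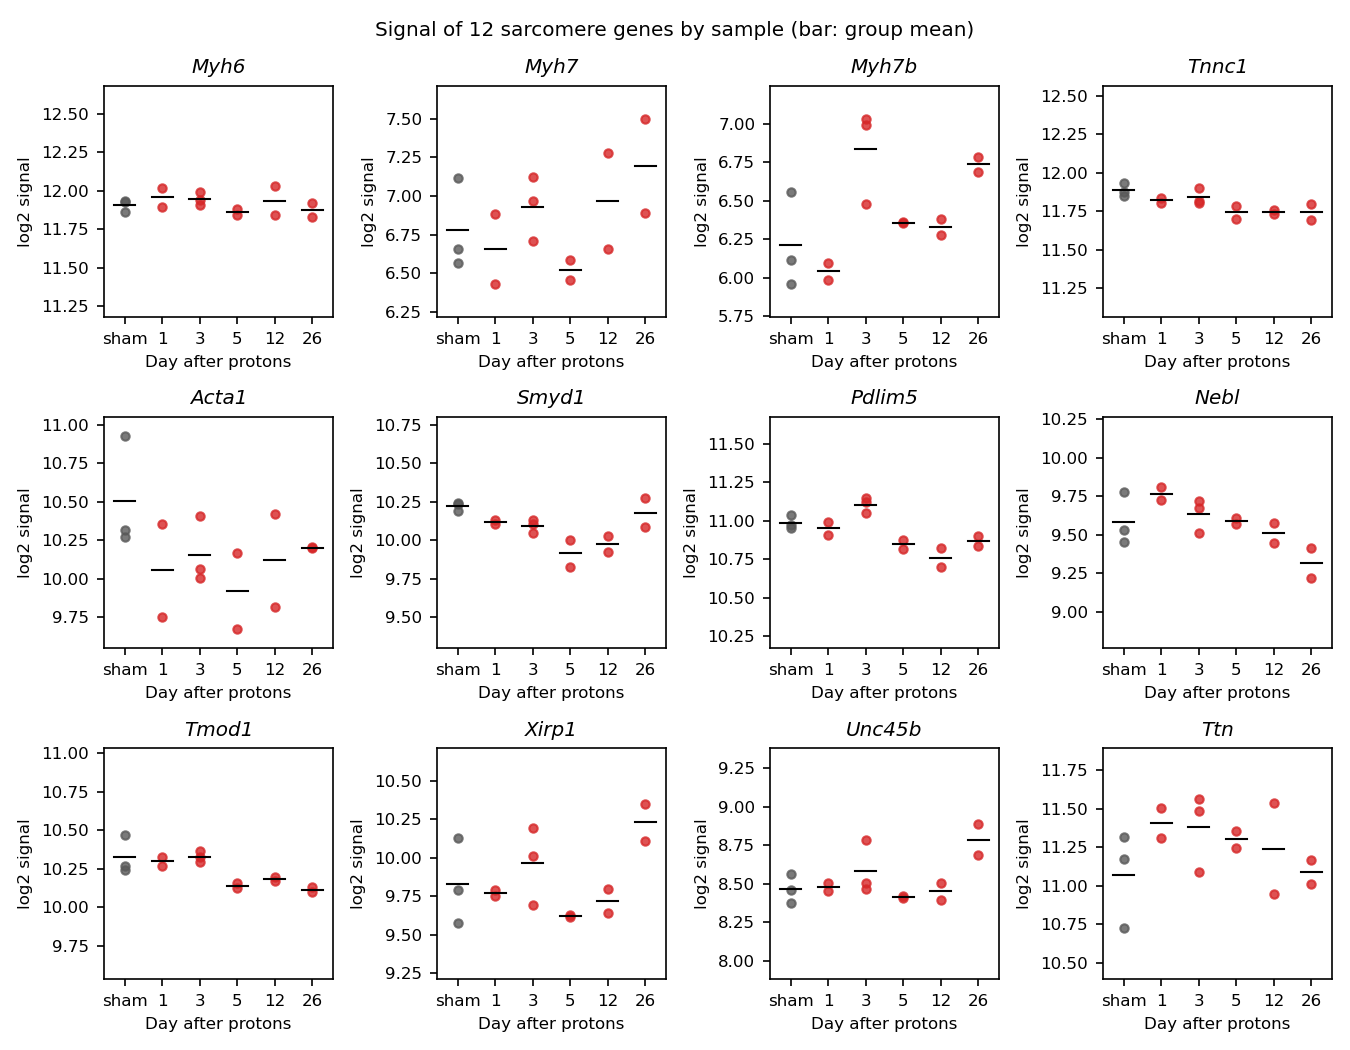
Log2 signal (vertical axis, each panel with its own range) of 12 of the genes in each of 14 samples, sham in grey and proton days 1 to 26 in red, with a bar at the group mean. Pdlim5 is highest at day 3 and below all sham samples at days 5, 12 and 26, and the higher sham point of Acta1, at 10.92, is the sample of day 3.

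Genes that set the length of thin filaments or anchor them all had a mean below sham over all proton days, except Nrap under quantile normalization and, without the sham sample of day 3, Lmod2 and Nebl (0.04 and 0.07), and none passed. Tmod1, tropomodulin, caps the pointed end of the filament, and gave 10.27, 10.24 and 10.47 in the sham samples. Proton samples of Tmod1 read 10.27 and 10.32 on day 1, 10.29, 10.37 and 10.33 on day 3, 10.12 and 10.16 on day 5, 10.20 and 10.17 on day 12, and 10.13 and 10.10 on day 26. Samples of days 5, 12 and 26 lay below all sham samples, those of days 1 and 3 inside the sham range. The difference at day 26 was -0.22 (SE 0.0706, adjusted p = 0.227), a fold of 0.861. A second Tmod1 probe set with a mean signal of 5.57 differed by 0.30 in the other direction at day 26, and the mean of both probe sets by 0.04. Nebl, nebulette, a nebulin relative that links actin to the Z-disc, gave 9.45, 9.53 and 9.78 in the sham samples. Proton samples of Nebl read 9.72 and 9.81 on day 1, 9.67, 9.51 and 9.72 on day 3, 9.61 and 9.57 on day 5, 9.44 and 9.58 on day 12, and 9.42 and 9.22 on day 26. Its day 26 samples lay below all sham samples (-0.27) and its day 1 difference was 0.18; without the sham sample of day 3 these were -0.17 and 0.28. A second, dimmer probe set of Nebl gave -0.44 at day 26 and -0.06 at day 1, the latter on the other side of sham. The leiomodins, which nucleate and lengthen the filament, stayed within the sham range or overlapped it, with differences of -0.10 to 0.07 for Lmod2 and -0.20 to 0.00 for Lmod3, or -0.03 to 0.13 and -0.09 to 0.11 without that sham sample. Neb, nebulin itself, had low signals that ran from 5.48 to 6.81 within sham alone, and Nrap, which helps assemble new myofibrils, lay below sham at day 12 only (-0.09).

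Of titin and its Z-disc partners, 8 of 10 had a mean below sham over all proton days under each scaling (46.7% of all genes), 2 of them at an unadjusted p under 0.05 (5.86% of all genes). Without the sham sample of day 3 it was 7 of 10, as Tcap turned from -0.08 to 0.02. Titin itself was one of the others. Ttn gave 10.72, 11.32 and 11.17 in the sham samples. Proton samples of Ttn read 11.31 and 11.51 on day 1, 11.49, 11.09 and 11.56 on day 3, 11.25 and 11.35 on day 5, 10.95 and 11.53 on day 12, and 11.17 and 11.01 on day 26. Each day overlapped sham, whose first sample was the lowest of all, and the difference over all days was 0.21 (SE 0.14, adjusted p = 0.53), with an interval of -0.09 to 0.52; without the first sham sample of day 1 it was 0.039. Late minus early it was -0.23 (SE 0.145, adjusted p = 0.516). Ttn was read by a single probe set of the annotation, so its isoforms were not separated.

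Csrp3, the muscle LIM protein that senses stretch at the Z-disc, gave 11.22, 11.08 and 11.18 in the sham samples. Proton samples of Csrp3 read 11.13 and 11.09 on day 1, 11.15, 11.14 and 11.05 on day 3, 10.95 and 11.05 on day 5, 11.05 and 10.93 on day 12, and 11.01 and 10.94 on day 26. Days 5, 12 and 26 lay below all sham samples and days 1 and 3 overlapped them. Its difference was -0.18 (SE 0.0637, adjusted p = 0.247) at day 26, -0.12 (SE 0.0456, adjusted p = 0.36) over all days and -0.13 (SE 0.0472, adjusted p = 0.29) for late minus early. Tcap, telethonin, which joins 2 titin molecules at the Z-disc, lay below sham at day 26 (-0.29) and in mean above it at days 3 and 5, by 0.06 and 0.10, or 0.16 and 0.20 without the sham sample of day 3. Myoz2, calsarcin 1, which tethers calcineurin to the Z-disc, gave 11.63, 11.52 and 11.67 in the sham samples. Proton samples of Myoz2 read 11.52 and 11.43 on day 1, 11.53, 11.60 and 11.46 on day 3, 11.47 and 11.46 on day 5, 11.60 and 11.47 on day 12, and 11.44 and 11.46 on day 26. It lay below sham at days 1, 5 and 26, with a difference of -0.13 (SE 0.062, adjusted p = 0.754) at day 1.

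The PDZ-LIM proteins, adaptors on alpha-actinin, included the gene with the smallest p in the tests over time, though none passed. Pdlim5, also called ENH, gave 11.04, 10.97 and 10.95 in the sham samples. Proton samples of Pdlim5 read 10.91 and 10.99 on day 1, 11.12, 11.05 and 11.15 on day 3, 10.82 and 10.88 on day 5, 10.70 and 10.82 on day 12, and 10.90 and 10.83 on day 26. All 3 day 3 samples lay above sham and all samples of days 5, 12 and 26 below it. Differences were 0.12 (SE 0.0535, adjusted p = 0.557) at day 3, -0.14 at day 5, -0.23 (SE 0.0598, adjusted p = 0.531) at day 12, a fold of 0.855, and -0.12 at day 26. Pdlim3, the actinin-associated LIM protein, gave 7.71, 7.34 and 7.87 in the sham samples. Proton samples of Pdlim3 read 7.99 and 7.74 on day 1, 8.07, 8.04 and 8.36 on day 3, 7.31 and 7.49 on day 5, 7.25 and 7.83 on day 12, and 7.89 and 7.39 on day 26. Its day 3 samples lay above sham, at 0.52 (SE 0.186, adjusted p = 0.448), a fold of 1.43, while days 5 to 26 overlapped sham. Pdlim1 lay below sham at days 3 and 12 (-0.16 and -0.21), where its second probe set gave -0.25 and -0.23. The probe set used and the second one parted at day 26, at -0.03 and -0.23, and late minus early, at 0.01 and -0.07. Without the sham sample of day 3, the one used gave -0.10 at day 3 and 0.03 at day 26.

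Actn2, the alpha-actinin that cross-links actin at the Z-disc, overlapped sham at every day, with differences of -0.11 to 0.01, or -0.09 to 0.03 without the sham sample of day 3. Ldb3, cypher, lay below sham at days 1, 5 and 12 (-0.15, -0.12 and -0.14) but not at day 26 (0.05, or 0.03 without that sham sample). Myot, myotilin, lay below sham at days 1 and 12 (-0.22 and -0.29) and had a mean 0.21 above it at day 3, with overlap.

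Of the 5 genes at the edge of the Z-disc and the intercalated disc, 3 had means above sham over all days and 2 below, under each scaling. Xirp1, a Xin-repeat actin-binding protein of the intercalated disc, gave 9.57, 9.79 and 10.13 in the sham samples. Proton samples of Xirp1 read 9.75 and 9.79 on day 1, 10.19, 10.01 and 9.69 on day 3, 9.63 and 9.62 on day 5, 9.79 and 9.64 on day 12, and 10.35 and 10.11 on day 26. The day 26 samples were at the top of the range, with the lower one just inside sham, and the day 26 difference was 0.40. Over all days the difference was 0.03 (SE 0.114, adjusted p = 0.929), and -0.10 without the first sham sample of day 1 but 0.18 without that of day 3; late minus early it was 0.10 (SE 0.118, adjusted p = 0.723). Its relative Xirp2 lay below sham at day 26 (-0.31), the opposite side from Xirp1; the difference between these genes was not tested.

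Des, desmin, the intermediate filament around the Z-disc, gave 11.25, 11.29 and 11.26 in the sham samples. Proton samples of Des read 11.26 and 11.22 on day 1, 11.28, 11.30 and 11.25 on day 3, 11.01 and 11.18 on day 5, 11.20 and 11.22 on day 12, and 11.11 and 11.14 on day 26. Days 5, 12 and 26 lay below all sham samples, and the day 5 difference was -0.17 (SE 0.0546, adjusted p = 0.445), a fold of 0.888. Flnc, filamin C, and Cmya5, myospryn, had means above sham at every day, except Flnc at days 5 and 12 and Cmya5 at day 26 with array medians set equal, up to 0.25 for Flnc at day 26 and 0.20 for Cmya5 at day 1, and both overlapped sham throughout. Without the sham sample of day 3, Flnc lay below sham in mean at day 12 (-0.03) and Cmya5 stayed above at every day.

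The ankyrin-repeat genes, which heart muscle raises under mechanical stress, had means below sham at all 5 days, except Ankrd1 at day 1 with array medians set equal. Ankrd1, also called CARP, gave 11.29, 11.20 and 11.38 in the sham samples. Proton samples of Ankrd1 read 11.39 and 11.08 on day 1, 11.39, 11.15 and 10.89 on day 3, 10.96 and 11.19 on day 5, 11.02 and 11.16 on day 12, and 11.16 and 11.15 on day 26. Days 5, 12 and 26 lay below sham, while days 1 and 3 had both a high and a low sample. The difference over all days was -0.15 (SE 0.0939, adjusted p = 0.515), with an interval of -0.35 to 0.05, and late minus early it was -0.07 (SE 0.0974, adjusted p = 0.796). Ankrd2 had signals of 6.22 to 6.89 in sham and 5.51 to 6.71 in the proton samples, and lay below sham at day 12 (-0.69); over all days its difference was -0.46 (SE 0.208, adjusted p = 0.413), and -0.29 without the sham sample of day 3.

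Smyd1, a muscle methyltransferase that binds myosin during assembly, had the smallest p of the 41 genes against sham at day 5 and over all days. It gave 10.19, 10.24 and 10.24 in the sham samples. Proton samples of Smyd1 read 10.10 and 10.13 on day 1, 10.13, 10.11 and 10.05 on day 3, 9.83 and 10.004 on day 5, 10.03 and 9.92 on day 12, and 10.27 and 10.09 on day 26. All samples of days 1, 3, 5 and 12 lay below the lowest sham sample, whereas at day 26 1 sample was the highest of all. Differences were -0.31 (SE 0.075, adjusted p = 0.359) at day 5, a fold of 0.809, -0.25 (SE 0.075, adjusted p = 0.57) at day 12 and -0.17 (SE 0.0536, adjusted p = 0.317) over all days. Its partner Unc45b, the chaperone that folds the myosin head, gave 8.37, 8.46 and 8.56 in the sham samples. Proton samples of Unc45b read 8.50 and 8.45 on day 1, 8.50, 8.79 and 8.46 on day 3, 8.41 and 8.42 on day 5, 8.51 and 8.40 on day 12, and 8.89 and 8.69 on day 26. The day 26 samples were above all sham samples, at 0.32 (SE 0.109, adjusted p = 0.24), a fold of 1.25, and the other days overlapped.

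Late days (12 and 26) were then set against early days (1 and 3), a comparison that uses no sham sample and weights the days equally, so that a difference can depart slightly from that of the pooled means. Of the 41 genes 28 had a lower mean late, 68.3% against 43.2% of all genes, with a median of -0.05 against 0.03. With array medians set equal 38 were lower, but the median of all genes moved to -0.07 too, against -0.14 for the 41. Since that scaling shifts all genes of an array alike, the median of the 41 minus that of all genes could not change, and stayed at -0.0726. Under quantile normalization, which can change it, it was -0.0593. For 4 genes, Pdlim5, Tmod1, Tnnc1 and Tcap, all 4 late samples lay below all 5 early ones (2.59% of all genes), and for none above (1.48%). Pdlim5 had the smallest p of the 41 genes in any comparison, with 11.04 ± 0.10 (SD, n = 5) early and 10.81 ± 0.08 (SD, n = 4) late and a difference of -0.21 (SE 0.0444, adjusted p = 0.131), a fold of 0.862. Nebl averaged 9.69 ± 0.11 early and 9.41 ± 0.15 late, with 1 late sample inside the early range and a difference of -0.29 (SE 0.0784, adjusted p = 0.194). Its second probe set, with a mean of 6.49, gave -0.27.

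With the other-cell covariate, Pdlim5 and Nebl passed the threshold for late minus early (adjusted p = 0.0147 and 0.0414, log2 differences -0.24 and -0.31), in a fit that called 347 of all genes. Tmod1 averaged 10.32 ± 0.04 early and 10.15 ± 0.04 late, a difference of -0.17 (SE 0.0524, adjusted p = 0.237) that shrank to -0.003 for the mean of its probe sets. The largest late differences by size were in genes with more spread, -0.52 for Tpm2 and -0.42 for Pdlim3, while Myh7 stood highest at 0.29. The cardiomyocyte markers outside the sarcomere were lower late too, with a median of -0.10 and 10 of 12 below. Against sham, 6, 1, 5, 7 and 9 of these 12 were below at the 5 days. Over all proton days 6 of the 12 were below sham, with a median of 0.01. The endothelial, fibroblast and macrophage markers were higher late, with medians of 0.28, 0.21 and 0.23.

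**Figure D4:**
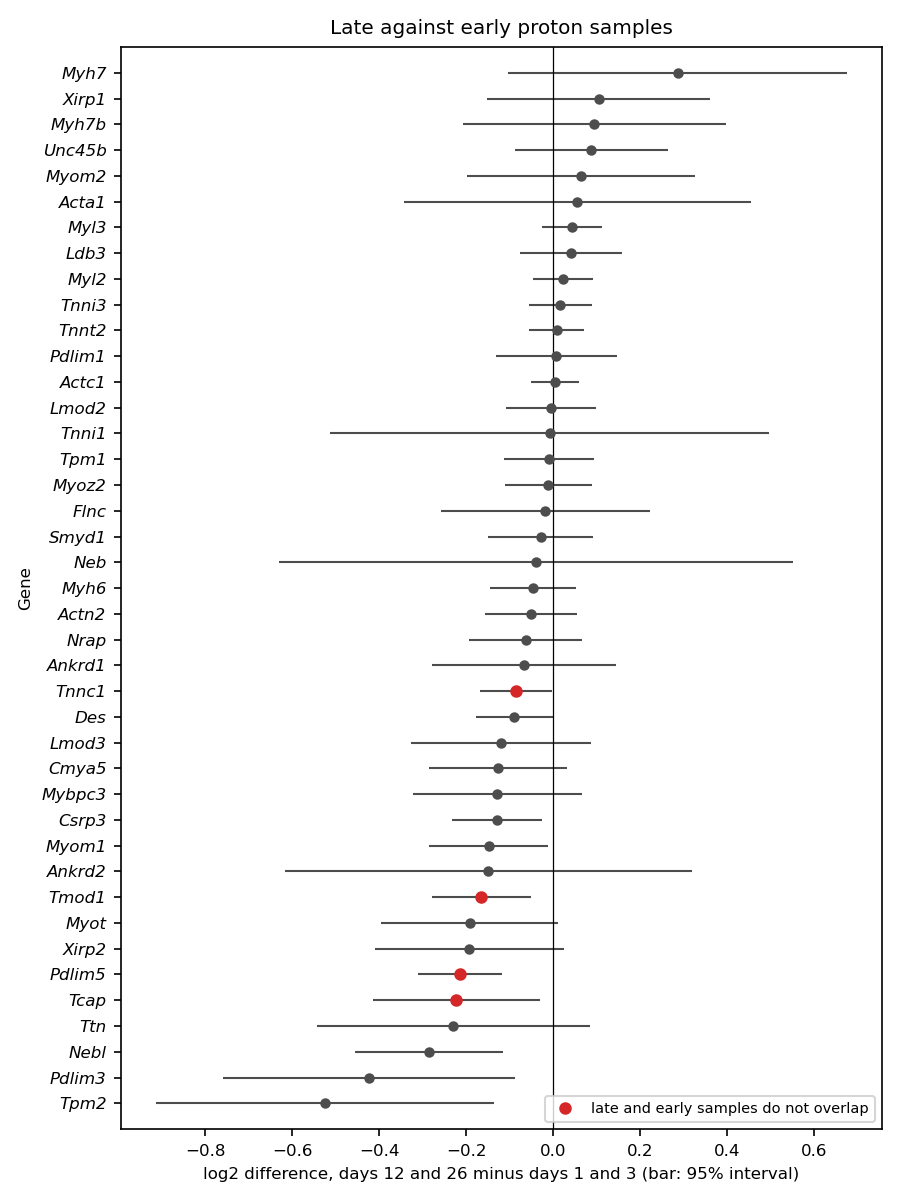
Log2 difference between late (days 12 and 26) and early (days 1 and 3) proton samples for the 41 genes, with 95% intervals as bars and genes ordered by difference. Red points mark Tnnc1, Tmod1, Pdlim5 and Tcap, whose 4 late samples all lie below the 5 early ones; 28 genes lie left of zero.

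One test over the whole time course gave no call either. In limma's F-test of any proton day against sham, 9 of the 41 genes had an unadjusted p under 0.05 (9.54% of all genes; 0.0248% passed after adjustment), led by Pdlim5 (adjusted p = 0.215), Myh7b (0.386) and Smyd1 (0.415). In the F-test of any difference among the 5 proton days it was 11 of 41 (8.43% of all genes; 0% after adjustment), led again by Pdlim5 (adjusted p = 0.234), Myh7b (0.429) and Myot (0.465). With the other-cell covariate Pdlim5 passed both tests, at adjusted p of 0.0275 and 0.0327, where 132 and 68 of all genes passed.

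Other genes of the sarcomere and its upkeep, 51 tested of a list of 57, gave the same count of 0 passing in every comparison. Their medians against sham were -0.04, 0.00, -0.05, -0.07 and 0.04 at the 5 days. Myl1, an essential light chain of fetal and skeletal muscle, had the smallest p over all days, with a difference of -0.62 (SE 0.127, adjusted p = 0.139), and Bag3, a co-chaperone of filamin turnover, at day 26, with 0.52 (SE 0.108, adjusted p = 0.0929). The atrial light chains Myl7 and Myl4 differed by 2.29 (SE 0.634, adjusted p = 0.17) and 1.997 (SE 0.789, adjusted p = 0.286) at day 26, and by 1.60 and 1.68 at day 5. Atrial markers as a list had medians of -0.11, 0.42, 0.46, 0.14 and 0.68 at the 5 days. Their mean signal ran from 6.50 to 7.12 in sham, 7.40 to 7.91 on day 5 and 7.36 to 8.51 on day 26, and overlapped sham on the other days. Their median deviation from the gene means was 1.06 in day 26 replicate 1 and -0.09 in replicate 2. Atrial tissue in these preparations was not tested. Of 16 regulators of muscle transcription 14 were tested and none passed; the smallest adjusted p was 0.217, for Hand2 late minus early, with a log2 difference of -0.39, and Myocd, a cofactor of serum response factor, gave -0.31 at day 26 (adjusted p = 0.305).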

How the data were processed

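The deposited table holds log2 signals of 34760 probe sets on 15 arrays; the submitters' processing notes name MAS5 with no version, and the normalization is not given in the sources used here, so the authors' values were used as deposited. The array's annotation gave 1 symbol to 21640 probe sets, several to 1321 and none to 11799; the highest-mean single-symbol probe set stood for each gene, 3 of the 41 genes having 2 (Tmod1, Nebl, Pdlim1). Genes with a mean above 5.002, the median of probe set means, were tested with limma 3.58.1 under R 4.3.3, using lmFit and a trended eBayes over 14 samples of 6 groups. Residual degrees of freedom were 8, moderated ones 12.1, and p-values were adjusted by Benjamini-Hochberg. The fit was tested on simulated data. The number of arrays limits the precision. Replicate numbers were not a block: over 26 same-numbered pairs the residuals had a median correlation of -0.0832. Genes given with all values were the 3 of smallest p in each comparison and 10 fixed ones (Myh6, Myh7, Acta1, Actc1, Tnni1, Tnni3, Ttn, Csrp3, Ankrd1 and Xirp1); others named were chosen by role or after their values were seen. The 41 genes, the lists and the rule were chosen with earlier results of these data known. Alternatives covered scaling, the signal limit, probe set choice, variance model, arrays merged, controls, other-cell markers, a replicate block and each sample left out. Of the lists, Capn3 had no single-symbol probe set, and Tnnc2, Lmod1, Myoz1 and Igfn1 were below the limit; another listed gene is not reported here.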

Additional observations from a re-analysis of the deposited data

How the results depend on the processing

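The count of 0 genes past the threshold held in each comparison and both tests over the time course under all alternatives run, the covariate for other-cell markers excepted. With it, 1 gene passed at day 3 and 1 at day 26 (Myh7b), 2 late against early (Pdlim5 and Nebl), and 1 in each test over the time course (Pdlim5). Setting array medians equal moved the median difference to 0.0101 at day 1, -0.1621 at day 5, -0.1626 at day 26 and -0.1389 late against early, as it shifted the median of all genes by up to -0.105. It also turned Myh6 over all days to -0.0183 and, late against early, Acta1 to -0.037, Actc1 to -0.088 and Tnni3 to -0.0754, while quantile normalization turned Actc1 to -0.0079. The covariate turned Myh6 to -0.023 and Myh7 to -0.0057 over all days and Tnni1 to 0.1479 late against early. Sham of day 1 alone turned Myh7 to -0.0345, and the mean of probe sets turned Tmod1 at day 26 to 0.0433. For these reversals the cause was not tested, beyond the second probe set of Tmod1.

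Leaving out 1 sample at a time changed no count of passing genes. The median at day 26 ran from -0.1104 (without day 26 replicate 1) to -0.0222. Over all days, Myh6 ran from -0.0153 to 0.0261, Myh7 from -0.0345 to 0.2407 and Xirp1 from -0.0993 to 0.1779. Late against early, Myh6 ran from -0.0932 to 5e-04, Acta1 from -0.0961 to 0.2071, Actc1 from -0.0039 to 0.0131, Tnni1 from -0.2256 to 0.21, Tnni3 from -0.0057 to 0.04 and Ankrd1 from -0.1425 to 0.0107. With the replicate number as a block (replicate block), 0 of the 41 genes passed, the smallest adjusted p being 0.0947, in the test of any proton day against sham; the numbers did not pair the samples, with 9 of 26 correlations above 0.1.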
